A study of Mus musculus with 2 samples.

Results

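Genes of glutathione metabolism and antioxidant defence were examined in mouse mammary gland 1 day after forced weaning and on the day of weaning. The 38 genes were taken as a list, by gene symbol: 16 glutathione transferases, 4 genes of glutathione synthesis and reduction, 3 glutathione peroxidases, 3 superoxide dismutases, 9 genes of the peroxiredoxin and thioredoxin system, and the regulators Nfe2l2 (which encodes Nrf2) and Keap1 with the Nrf2 target gene Nqo1. Of these, 35 had probe sets annotated to them alone, 69 probe sets in all, among 18193 named genes of the array. The day 1 group was mammary gland of CD1 females 1 day into involution, and the day 0 group was gland of CD1 females taken when the pups were removed. In both groups lactation had run for 10 days with litters set to 6 pups, the labels name no transgene or other treatment for either, and RNA from 5 mice was pooled onto 1 array. With 1 array per day the spread between mice is not visible, no test is possible, and every difference below is between 2 arrays.

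Glutathione is a tripeptide whose thiol donates electrons to peroxides or is joined to reactive compounds by the glutathione transferases. Superoxide dismutases turn superoxide into hydrogen peroxide, which glutathione peroxidases and peroxiredoxins then reduce at the expense of glutathione and thioredoxin, and NADPH restores both. The transcription factor Nrf2 is kept low by Keap1, an adaptor for its ubiquitination, and when released it pairs with small Maf proteins on antioxidant response elements of many of these genes. In the lactating gland, secretory cells run a high oxidative and lipid metabolism, and the gland takes up leukocytes as it involutes.

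Across the list no common shift was seen. The median log2 ratio of day 1 over day 0 signal was -0.13 over the 35 genes, against -0.12 over all 13239 measured genes. A gene was measured when its brighter array exceeded a floor of 77.7 signal units, which all 35 did, and it was counted when its signal differed at least 2-fold. On day 1, 6 of the 35 genes had a signal at least 2-fold higher, beside 10.4% of all measured genes, and 4 had one at least 2-fold lower, beside 13.3% of all measured genes. After scaling on control transcripts added at hybridisation the split was 18 higher and 1 lower, beside 48.7% and 2.28% of all genes. That scale is returned to below. The higher genes were Gsr, Gpx4, Txnrd1, Srxn1, Gsto1 and Gsta4, and the lower ones Gstm7, Prdx4, Sod2 and Gstm4. Both counts are near what the array as a whole gave.

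The arrays differed in ways that touch every ratio. Bacterial transcripts added to the hybridisation mix had a median log2 ratio of -1.16 over 15 probe sets. Over all probe sets the signal had medians of 60.1 (day 1) and 94.2 (day 0). Signal at the 3' end of beta-actin was 1.51 times that at its 5' end on day 1 and 2.50 times on day 0, and for Gapdh the same ratio was 1.48 on day 1 and 1.52 on day 0. All 6 luminal epithelial markers checked, among them Krt8 and Epcam, were above the floor on both arrays. In whole gland, fewer cells of a type and less RNA per cell cannot be told apart.

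**Figure D1:**
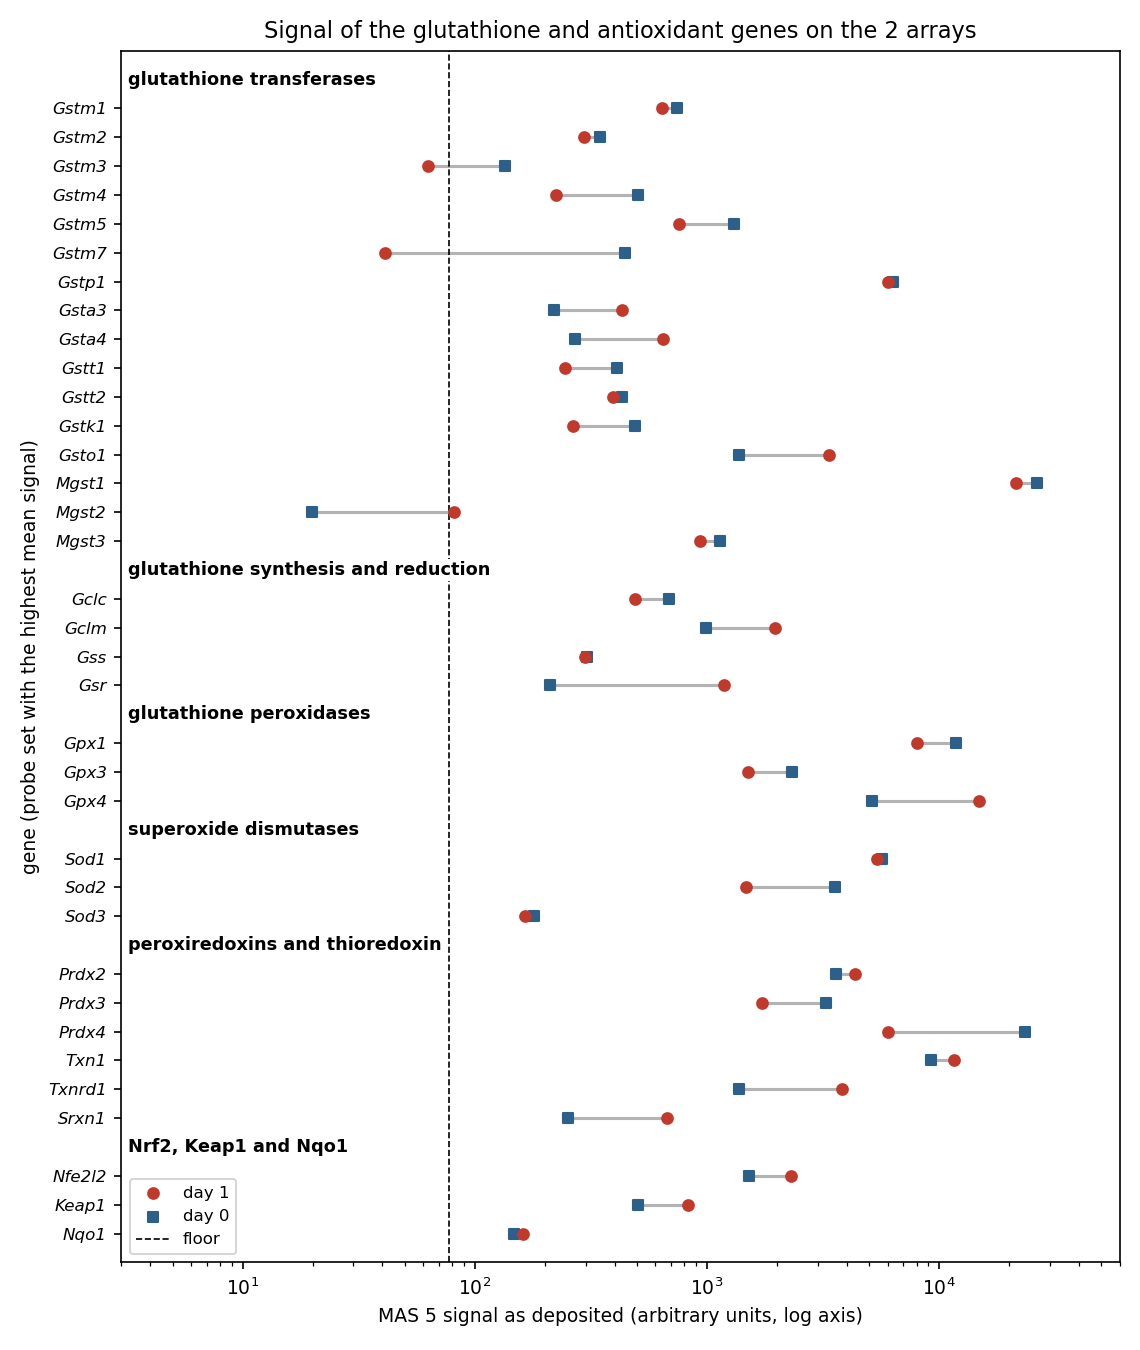
MAS 5 signal of the 35 genes (log axis, arbitrary units, 1 probe set per gene) on the day 1 array (circles) and the day 0 array (squares), 1 array of 5 pooled mice each, with the floor of 77.7 as a dashed line. Among genes above the floor on both arrays, Gsr and Gpx4 have their day 1 mark farthest to the right of day 0, and Prdx4 has it farthest to the left.

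Before the values, the promoters were read for the core of the antioxidant response element, TGACNNNGC on either strand, in the window from 250 bases before to 50 bases after each transcription start in RefSeq (build GRCm38.p6). The letters occurred in 10 of the 32 listed genes with a window (31.25%), and in 14.0% of all 27025 genes of the table. The core can overlap the AP-1 letters TGACTCA, which 149 of the 4071 windows with a match did. Stretches around the match are shown for 3 genes with a higher signal on day 1 as deposited (Txnrd1, Gclm and Gsta3). Shown beside them are 2 with a lower one (Gstm7 and Gstm5). These genes were picked so that both directions appear. Gclm, Gsta3 and Gstm5 were under 2-fold, and Gstm5 was at 0.38 log2 on the hybridisation control scale. Mgst1, Sod1, Nfe2l2 and Prdx1 also had a match before the start and are not shown. Capitals mark the match, written 5' to 3' on the strand of the gene, so that a match on the other strand reads GCNNNGTCA. Txnrd1, on the plus strand at chr10:82859088-82859148, has 3 windows and a match in 1. Gclm is on the plus strand at chr3:122245397-122245457, and Gsta3 on the plus strand at chr1:21240438-21240498. Gstm7 is on the minus strand at chr3:107931709-107931769, with a match in 1 of 2 windows, and Gstm5 on the plus strand at chr3:107895786-107895846.
Txnrd1: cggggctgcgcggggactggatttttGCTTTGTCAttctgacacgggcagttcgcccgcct
Gclm: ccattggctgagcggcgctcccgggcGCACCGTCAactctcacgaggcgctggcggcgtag
Gsta3: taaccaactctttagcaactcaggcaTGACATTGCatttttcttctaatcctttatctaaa
Gstm7: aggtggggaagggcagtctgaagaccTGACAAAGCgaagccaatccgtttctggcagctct
Gstm5: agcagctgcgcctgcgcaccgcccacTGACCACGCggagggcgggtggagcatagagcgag
The match began 92 bases before the start in Txnrd1, 134 in Gclm, 121 in Gsta3, 129 in Gstm7 and 42 in Gstm5. Gstm7 and Txnrd1 carry the same 9 letters, TGACAAAGC, on opposite strands. Of the 6 genes at least 2-fold higher, 4 had a window and 2 of those a match (Txnrd1 and Srxn1, in Srxn1 after the start). Of the 4 at least 2-fold lower, all had a window and 1 a match (Gstm7). A match describes letters and is not evidence of binding.

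Glutathione transferases differed in both directions. The 6 mu-class genes, which lie in a cluster on chromosome 3, all had a lower signal on day 1 at their brightest probe set as deposited, though 4 of them were above 0 log2 on at least 1 other scale of the arrays. Their log2 ratios ran from -2.52 to -0.21 with a median of -0.79, while Gsta3 and Gsta4 of the alpha class had a higher signal on day 1. Of the 16 transferases, 12 were under 2-fold, 2 were called higher on day 1 (12.5%) and 2 lower (12.5%). The same rule called 10.4% of all measured genes higher and 13.3% lower, so both shares are close to those of the whole array.

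Gstm7 had a signal of 41.1 on day 1 and 445.6 on day 0. The day 1 value is under the floor, so the signal was at least 5.73-fold lower, and 99.2% of measured genes had a higher ratio. Its other probe set gave 40.5 on day 1 and 254.9 on day 0, at least 3.28-fold lower, so both probe sets of Gstm7 went the same way. Gstm4 had signals of 222.8 on day 1 and 505.9 on day 0, a 2.27-fold lower signal. Gstm5 had 758.2 on day 1 and 1303.9 on day 0, a log2 ratio of -0.78. Those of Gstm2 were 294.9 on day 1 and 346.8 on day 0, within 0.25 log2 of no difference. Gstm3, at 63.0 on day 1 and 135.4 on day 0, was at least 1.74-fold lower, from a probe set shared between transcripts.

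Gstm1 cannot be given a direction. Its brightest probe set, of a kind (_x_at) whose probes can match other transcripts, had 637.4 on day 1 and 739.4 on day 0. A gene-specific one had 489.2 on day 1 and 815.3 on day 0, and another dim one was at least 1.70-fold lower. The fourth, again of the cross-matching kind, had 140.7 on day 1 and 30.4 on day 0, at least 1.81-fold higher. The mu-class genes are close paralogs, and a probe set of 1 may carry signal of another.

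Among the alpha class, Gsta4, whose product conjugates the lipid peroxidation product hydroxynonenal, had a signal of 645.1 on day 1 and 269.1 on day 0, 2.40-fold higher. Gsta3, which in mouse conjugates aflatoxin epoxide, stood just under the 2-fold line, with 431.0 on day 1 and 219.0 on day 0 (1.97-fold higher). A dim probe set of Gsta3 was at least 1.40-fold higher. A further alpha-class gene outside the 38, Gsta2, went the other way, with 49.4 on day 1 and 144.6 on day 0 from a probe set of the _a_at kind, at least 1.86-fold lower. The alpha class therefore held genes on both sides.

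Gsto1, an omega-class enzyme that reduces dehydroascorbate and mixed disulfides, had 3360.7 on day 1 and 1369.9 on day 0 at its brightest probe set, 2.45-fold higher. That probe set is of the _x_at kind. The gene-specific probe set of Gsto1 had 2233.1 on day 1 and 1853.9 on day 0, 1.20-fold higher, so the size of the difference at this gene depends on the probe set.

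The remaining transferases were under 2-fold. Gstp1, the pi-class enzyme, had 5993.0 on day 1 and 6300.2 on day 0. Mgst1, a membrane-bound transferase with peroxidase activity, had 21460.5 on day 1 and 26486.8 on day 0. On the day 1 array that is 53.5% of the highest signal, where a signal may no longer follow the amount of RNA. Gstk1, the kappa-class enzyme of mitochondria and peroxisomes, had 264.5 on day 1 and 491.1 on day 0 (1.86-fold lower). The theta-class gene Gstt1 had 244.7 on day 1 and 408.4 on day 0, against a near-equal 394.0 on day 1 and 431.5 on day 0 for Gstt2. Mgst3 was at 934.7 on day 1 and 1137.9 on day 0. Mgst2, whose product can make leukotriene C, was under the floor on day 0 (19.8) and barely above it on day 1 (81.0), so no fold is informative.

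Glutathione synthesis and reduction showed a split between enzymes of the same path. Gsr, glutathione reductase, which uses NADPH to return oxidised glutathione to its thiol form, had a signal of 1188.7 on day 1 and 209.9 on day 0. This is 5.66-fold higher, and 0.899% of measured genes had a higher ratio. The second probe set of Gsr had 898.8 on day 1 and 474.5 on day 0, 1.89-fold higher, so both were higher, by different amounts. Gsr had the highest ratio of the 35 genes at the brightest probe set of each, but with the mean of all measured probe sets it was at 1.71 log2 and Gpx4 at 2.50.

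Glutamate cysteine ligase, the rate-limiting enzyme of glutathione synthesis, consists of a catalytic subunit (Gclc) and a modifier subunit (Gclm). The modifier gene Gclm had 1969.8 on day 1 and 991.5 on day 0, 1.99-fold higher and so just outside the count. Its other probe set had 458.0 on day 1 and 204.4 on day 0, 2.24-fold higher. For the catalytic gene Gclc the probe sets disagreed. The one shared between transcripts had 491.4 on day 1 and 688.4 on day 0 (log2 ratio -0.49), and the gene-specific one 572.3 on day 1 and 351.5 on day 0 (log2 ratio 0.70). Gss, glutathione synthetase, which adds glycine in the last step, had 296.8 on day 1 and 302.9 on day 0, with 285.8 and 229.2 at its second probe set. The log2 ratio of Gsr exceeded that of Gss by 2.53, a gap that a uniform scaling of either array leaves as it is.

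The 3 glutathione peroxidases of the list, selenoenzymes in mouse, parted into Gpx4 on the higher side and Gpx1 and Gpx3 on the lower. Gpx4, which reduces lipid hydroperoxides within membranes, had 14909.2 on day 1 and 5154.4 on day 0, 2.89-fold higher. Its second probe set had 15980.9 on day 1 and 1437.2 on day 0, 11.1-fold higher. The direction at Gpx4 was therefore shared and the size was not. The first is of the _a_at kind, shared between transcripts of the same gene, and the second of the _x_at kind. No probe set of another kind was at hand. Gpx1, the abundant cytosolic peroxidase, had 8051.9 on day 1 and 11820.7 on day 0 (log2 ratio -0.55). Gpx3, which is secreted, had 1505.7 on day 1 and 2319.0 on day 0 (log2 ratio -0.62). The gap in log2 ratio was 2.09 between Gpx4 and Gpx1 and 2.16 between Gpx4 and Gpx3.

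None of the 3 superoxide dismutases was higher on day 1 as deposited. Sod2, the manganese enzyme of mitochondria, had 1465.7 on day 1 and 3552.5 on day 0, 2.42-fold lower. A second probe set of Sod2 had 394.3 on day 1 and 944.7 on day 0, 2.40-fold lower, and the last 541.5 on day 1 and 591.3 on day 0, 1.09-fold lower. Thus 2 of 3 measured probe sets gave nearly the same ratio. Sod1, the copper-zinc enzyme of the cytosol, had 5377.0 on day 1 and 5680.3 on day 0, and its 4 measured probe sets ranged from -0.81 to 0.14 log2. Sod3, the extracellular enzyme, had 164.2 on day 1 and 180.6 on day 0.

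Of the 3 measured peroxiredoxins, 2 had a lower signal on day 1 and 1 a higher one. Prdx4, the peroxiredoxin of the endoplasmic reticulum, had 6052.1 on day 1 and 23453.9 on day 0, 3.88-fold lower, and 98.0% of measured genes had a higher ratio. The other measured probe sets of Prdx4 had 2536.1 on day 1 and 6057.8 on day 0 (2.39-fold lower), and 905.2 on day 1 and 4067.4 on day 0 (4.49-fold lower). All 3 measured probe sets of this gene were thus at least 2-fold lower. Prdx3, the mitochondrial peroxiredoxin, had 1727.4 on day 1 and 3261.6 on day 0, 1.89-fold lower. Prdx2, a cytosolic enzyme that is also abundant in red cells, had 4320.6 on day 1 and 3581.6 on day 0, 1.21-fold higher. Prdx1 was left without a value because its 5 probe sets are annotated to a further gene as well, and Prdx5 and Prdx6 were not analysed here.

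The genes of the thioredoxin cycle were on the higher side at their brightest probe sets. Txnrd1, the cytosolic thioredoxin reductase, a selenoenzyme, had 3804.4 on day 1 and 1374.8 on day 0, 2.77-fold higher. Its second probe set had 293.9 on day 1 and 251.3 on day 0 (1.17-fold higher), and the last only a bound of 0.08 log2, so the size at Txnrd1 rests on the brightest probe set. Srxn1, sulfiredoxin, which repairs over-oxidised peroxiredoxins, had 671.2 on day 1 and 252.5 on day 0, 2.66-fold higher. The other 3 probe sets of Srxn1 were under the floor on day 0 and gave at least 3.03-fold, 2.05-fold and 1.34-fold higher signals. All 4 probe sets of this gene thus pointed the same way. Txn1, thioredoxin itself, had 11622.8 on day 1 and 9209.4 on day 0, 1.26-fold higher, whereas a dim probe set had 93.2 on day 1 and 401.8 on day 0, 4.31-fold lower. The log2 ratio of Txnrd1 exceeded that of Prdx4 by 3.42.

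Nfe2l2, Keap1 and Nqo1 were each under 2-fold. Nfe2l2 had 2303.8 on day 1 and 1513.3 on day 0, 1.52-fold higher. Keap1 had 829.0 on day 1 and 505.2 on day 0, 1.64-fold higher, while its dim second probe set had 78.3 on day 1 and 103.7 on day 0. Nqo1, a quinone reductase widely used as a readout of Nrf2, had 160.6 on day 1 and 148.0 on day 0, a log2 ratio of 0.12. Messenger RNA levels of Nfe2l2 and Keap1 do not measure Nrf2 protein, which is set mainly by its breakdown.

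**Figure D2:**
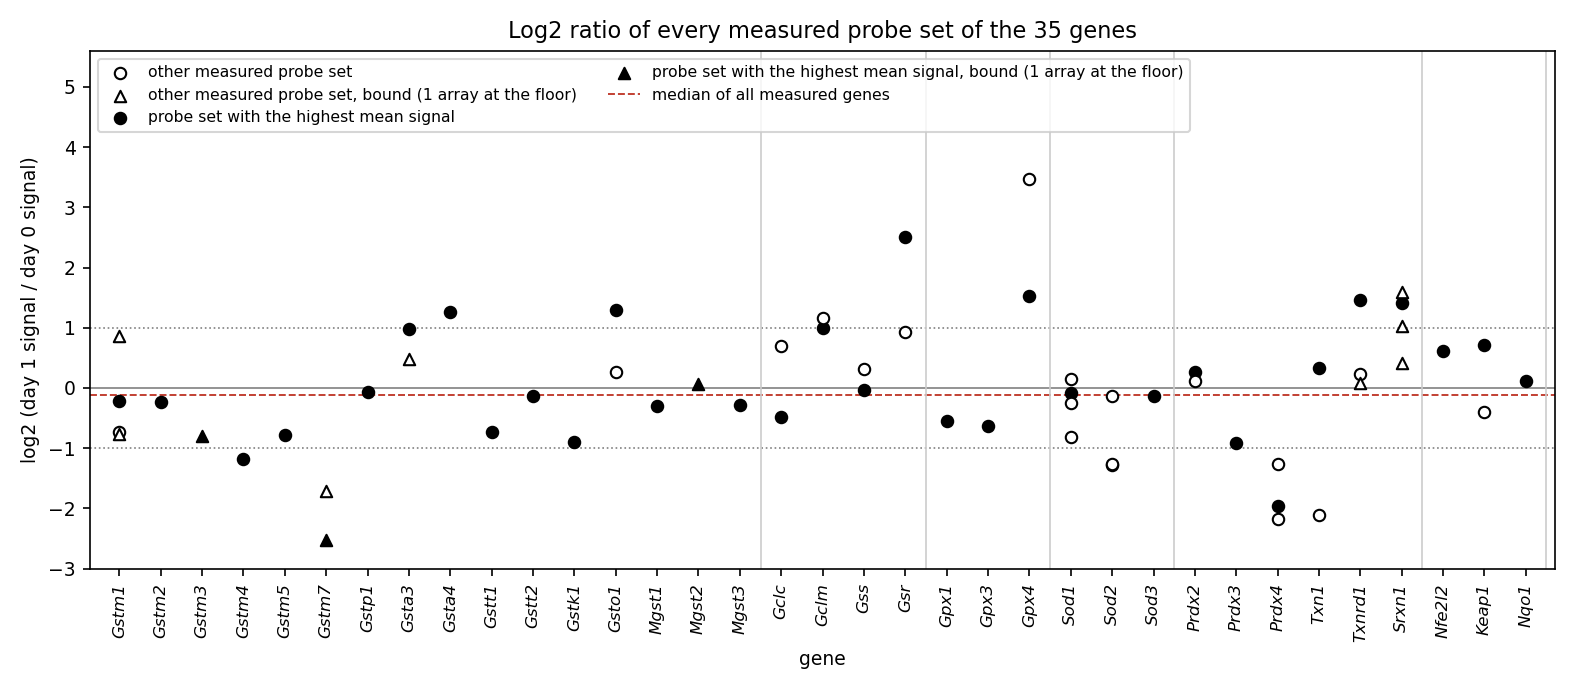
Log2 ratio of day 1 over day 0 signal for each of the 61 measured probe sets of the 35 genes, with filled marks for the brightest probe set of a gene, open marks for the others and triangles for bounds with 1 array at the floor. Prdx4, Gstm7, Srxn1 and Gclm have their probe sets on 1 side of 0, and those of Gclc, Gstm1 and Txn1 lie on both.

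How far probe sets of a gene agree bears on each of these values. Of the 35 genes, 17 had more than 1 measured probe set. In 3 of them, Gstm1, Gclc and Txn1, a probe set gave a ratio of the opposite sign, past 0.5 log2. Over all genes of the array the pooled SD between probe sets of the same gene was 0.56 log2. Probe sets of the _a_at kind are shared between transcripts of the same gene, and those of the _s_at and _x_at kinds can match other genes. Without probe sets of the _x_at, _s_at and _a_at kinds, 29 of the genes could be measured. Of the 6 higher genes, 3 were then still at least 2-fold higher (Gsr, Gsta4 and Srxn1), Gsto1 was under 2-fold, and Gpx4 and Txnrd1 had no probe set left. The 4 lower genes all stayed at least 2-fold lower in that setting, in which 9.56% of all genes were higher and 13.6% lower. With the mean of all measured probe sets of each gene, 5 genes were higher (7.90% of all genes) and 3 lower (11.3%). Txnrd1 (0.59 log2), Gsto1 (0.78) and Sod2 (-0.89) were then under 2-fold, and Gclm (1.08) was past it. At a threshold of 1.5-fold the counts were 10 and 10, with 20.4% and 27.2% of all genes called, and at 3-fold they were 1 and 2, with 3.85% and 4.33% called.

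The 2 arrays were also put on 6 other scales. Quantile normalization left 7 genes higher and 5 lower by the 2-fold rule, where 11.7% and 11.8% of all genes were. Loess left 6 and 5 (12.2% and 10.8% of all genes), and scaling on housekeeping genes 6 and 4 (9.78% and 14.1%). Scaling on ribosomal protein genes gave 10 higher and 2 lower (22.4% and 6.84%), and median centring gave the same counts (28.0% and 5.29%). Scaling on the hybridisation controls gave 18 higher and 1 lower, with 48.7% and 2.28% of all genes called and their median at 0.97 log2. The members' counts shifted with those of all genes. Gsr, Gpx4, Txnrd1, Srxn1, Gsto1 and Gsta4 were at least 2-fold higher on all 7 scales, the deposited one included, and Gstm7 at least 2-fold lower. Scaling on ribosomal proteins, on the median and on the hybridisation controls raised the ratios of all 35 genes. No higher gene could leave the count on those scales, whereas lower genes could. The housekeeping genes had a median of 0.03 log2, so that scale moved the ratios little. For the 6 higher genes, only quantile normalization and loess could change the call. Gsr ranged from 2.41 to 3.66 log2, and Gstm7 from -2.61 to -2.01. Prdx4 was at least 2-fold lower on 6 of the 7 scales, and at -0.79 log2 on the hybridisation controls. Sod2 and Gstm4 were so on 4 of the 7, and on the hybridisation controls their log2 ratios were -0.11 and -0.02. Of the 6 mu-class genes, Gstm1, Gstm2, Gstm3 and Gstm5 had a log2 ratio above 0 on at least 1 scale. The same holds for Sod1, Sod3, Gpx1, Gpx3, Prdx3, Gstk1, Gstp1, Gstt1, Gstt2, Mgst1, Mgst3, Gclc and Gss. The lower side of all these genes on the deposited scale therefore depends on the scale. Of the 35 genes, 18 kept the same sign on all 7 scales.

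**Figure D3:**
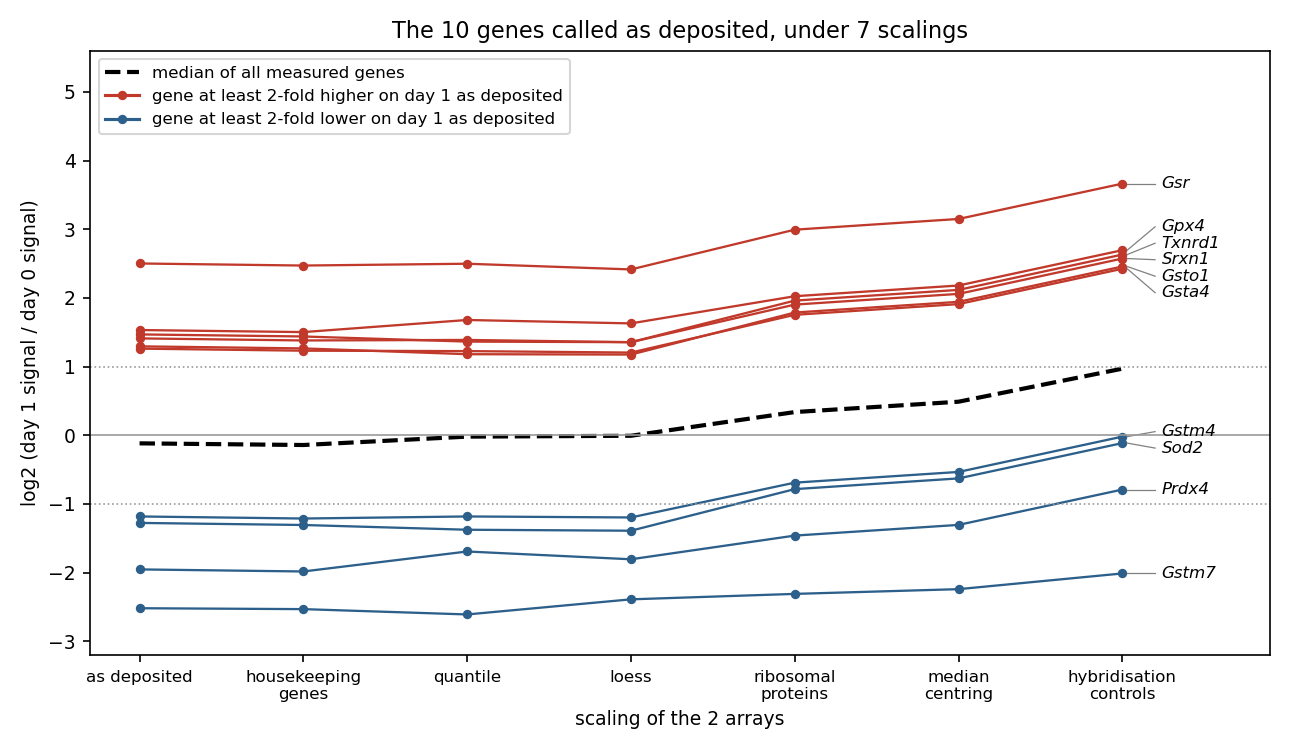
Log2 ratio of day 1 over day 0 signal for the 10 genes at least 2-fold different as deposited, on 7 scales of the 2 arrays, with the median of all measured genes as a dashed line. The 6 higher genes stay above the dotted 2-fold line throughout, and of the 4 lower genes only Gstm7 stays below it on the hybridisation control scale, where the median of all genes is 0.97. Ribosomal protein, median and hybridisation control scaling raise the ratio of every gene shown.

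Genes around these enzymes were read from 8 further lists of the pathway, 83 genes in all, of which 71 were measured. The lists hold no member of the 38. By the 2-fold rule 18 of the 71 genes were higher on day 1 (25.4%, beside 10.4% of all measured genes) and 5 lower (7.04%, beside 13.3%), with a median log2 ratio of 0.10. On the hybridisation control scale the counts were 42 and 0, where 48.7% and 2.28% of all genes were called. After median centring they were 27 and 5 (28% and 5.29% of all genes). With the mean of all probe sets they were 14 and 6 (7.9% and 11.3% of all genes). Without shared probe sets 54 of the genes could be measured, with 11 higher and 7 lower (9.56% and 13.6% of all genes). Differences between the lists were not tested.

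The list of partners and inhibitors of Nrf2 also holds the related factors Nfe2l1 and Nfe2l3, and Sqstm1, which binds Keap1. Its median was 1.44 log2. Of the 8 genes, 6 were at least 2-fold higher and 0 lower, beside 10.4% and 13.3% of all measured genes. With the mean of all probe sets the higher count was 4 of 8 (beside 7.9% of all genes), with Sqstm1 at 0.50 and Mafg at 0.61 log2. Without shared probe sets it was 4 of 7 (beside 9.56% of all genes), and Nfe2l1 had none left. Nfe2l3, a factor related to Nrf2, had 2480.8 on day 1 and 297.5 on day 0, 8.34-fold higher. Sqstm1, the autophagy receptor p62, which binds Keap1, had 7781.0 on day 1 and 2012.2 on day 0, 3.87-fold higher at a probe set of the _a_at kind. Its other probe set, which is dim, was at -0.95 log2. Bach1, a repressor that occupies the same DNA elements as Nrf2, had 1057.4 on day 1 and 311.0 on day 0, 3.40-fold higher. A repressor of these elements was thus among the higher genes of this list. Nfe2l1, another related factor, was 2.81-fold higher, with 2020.5 on day 1 and 719.2 on day 0. The small Maf gene Mafg was 2.61-fold higher (a second probe set had -0.17 log2) and Maff at least 2.22-fold higher, whereas Mafk, at 510.2 on day 1 and 575.5 on day 0, was not. Cul3, the scaffold of the ubiquitin ligase that Keap1 serves, had 1808.4 on day 1 and 1683.7 on day 0, and its 5 probe sets ranged from -0.54 to 1.22 log2.

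Of 9 other target genes of Nrf2 that were measured, 4 were at least 2-fold higher and 0 lower, beside 10.4% and 13.3% of all measured genes. Their median was 0.72 log2. Hmox1, heme oxygenase, had 1514.7 on day 1 and 164.7 on day 0, 9.20-fold higher. Ephx1, the microsomal epoxide hydrolase, had 1968.1 on day 1 and 405.4 on day 0, 4.85-fold higher. Akr1b8, an aldo-keto reductase, was 3.51-fold higher, with 983.5 on day 1 and 279.9 on day 0, and Blvrb, biliverdin reductase B, was 2.77-fold higher, with 426.3 on day 1 and 153.9 on day 0. The 5 other measured genes of the list were under 2-fold, with Cbr3 at 0.72, Ugdh at 0.12, Cbr1 at -0.09, Fth1 at -0.44 and Nqo2 at -0.55 log2, and a second probe set of Nqo2 was at -1.14. Target genes of Nrf2 therefore did not share 1 ratio.

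Genes that supply NADPH were divided. Idh1 and Idh2, the cytosolic and mitochondrial isocitrate dehydrogenases that make NADPH, had 1026.9 on day 1 and 384.5 on day 0 (2.67-fold higher), and 1358.8 on day 1 and 456.3 on day 0 (2.98-fold higher). All these probe sets are of the shared kinds (_s_at and _a_at), and the other probe set of Idh2, which is dim, was at -1.12 log2. In contrast Me1, the malic enzyme, had 8000.5 on day 1 and 15954.8 on day 0 (1.99-fold lower), Nnt, the mitochondrial transhydrogenase, 771.9 on day 1 and 1492.3 on day 0, and Pgd, of the pentose phosphate path, 3277.4 on day 1 and 3304.0 on day 0. In this list 2 of 7 genes were at least 2-fold higher and 0 lower, beside 10.4% and 13.3% of all measured genes. Without shared probe sets 0 of 4 were higher and 2 lower (Idh2 and Me1, the last at -1.07 log2), beside 9.56% and 13.6%. With the mean of all probe sets 1 was higher (Idh1) and 1 lower (Me1), beside 7.9% and 11.3% of all genes.

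Of 14 genes of glutathione precursor supply and turnover, 3 were at least 2-fold higher and 3 lower, beside 10.4% and 13.3% of all measured genes. Without shared probe sets 1 of 10 was higher and 3 lower, beside 9.56% and 13.6%. Chac1, an enzyme that degrades glutathione, was 4.65-fold higher, with 2782.9 on day 1 and 598.7 on day 0. Slc3a2, the heavy chain of the cystine transporter and of other amino acid exchangers, was 2.82-fold higher, with 8970.7 on day 1 and 3177.4 on day 0, while the light chain gene Slc7a11 was at 49.1 on day 1 and 120.3 on day 0. Anpep, an aminopeptidase, was at least 2.33-fold higher. Cth, which makes cysteine from cystathionine, had 89.2 on day 1 and 352.9 on day 0, 3.96-fold lower. Ggt5 was 4.16-fold lower and Ggt6 at least 3.21-fold lower, both of the gamma-glutamyl transferase family. On the hybridisation control scale these 3 lower genes were under 2-fold, at -0.82 log2 for Cth, -0.89 for Ggt5 and -0.68 for Ggt6.

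Among 16 other genes of peroxide and disulfide reduction, 1 was at least 2-fold higher and 0 lower, beside 10.4% and 13.3% of all measured genes. The higher gene was Txnrd2, the mitochondrial thioredoxin reductase, with 212.5 on day 1 and 91.5 on day 0, and 2 of its other probe sets were below 0. Cat, catalase, had 2326.4 on day 1 and 1292.7 on day 0, 1.80-fold higher. Txnip, an inhibitor of thioredoxin, had 9968.3 on day 1 and 10792.2 on day 0. Of the other glutathione transferases outside the 38, none of 5 measured was at least 2-fold different, and 4 of the 5 were below 0 log2.

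**Figure D4:**
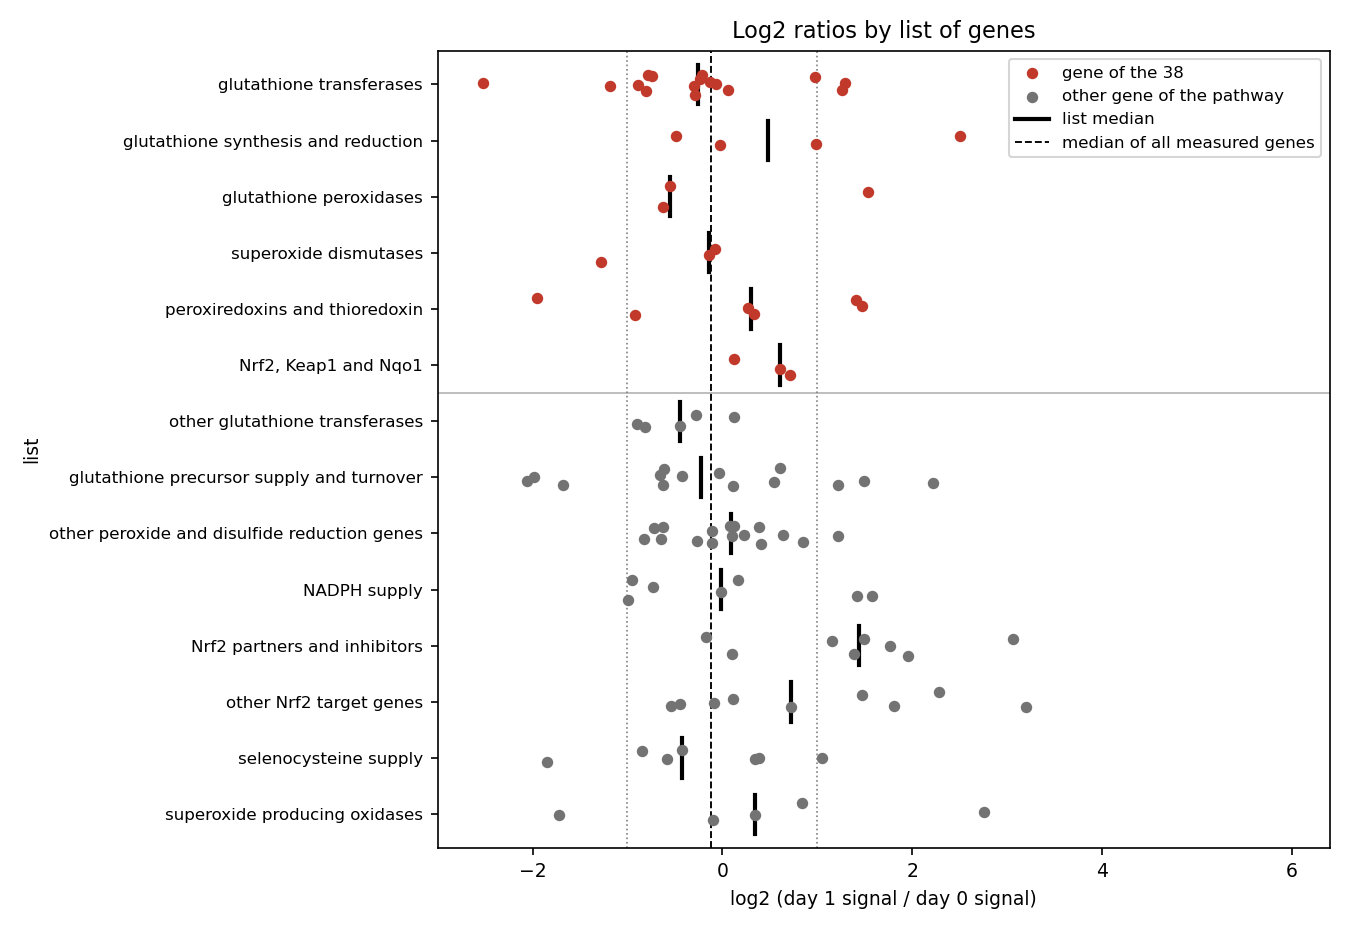
Log2 ratio of day 1 over day 0 signal of each measured gene, by list, with the 6 groups of the 38 genes above the line and the 8 further lists of the pathway below it. Bars mark list medians, dotted lines a 2-fold difference and the dashed line the median of all measured genes, -0.12. The list of Nrf2 partners and inhibitors, which also holds the related factors Nfe2l1 and Nfe2l3 and the gene Sqstm1, has a median of 1.44.

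Markers of other cells in the gland stand beside these values as follows. Of 8 macrophage markers, all above the floor on both arrays, 4 were at least 2-fold higher on day 1 (Cd14, Cd68, Lyz2 and Mrc1) and 1 at least 2-fold lower (C1qa), and Adgre1 had 375.2 on day 1 and 665.6 on day 0. Their summed signal was 37126 on day 1 and 10095 on day 0, with Cd14 alone at 29011 on day 1 and 3817 on day 0. Macrophage markers thus lay on both sides, and the part of leukocytes in the ratios of Hmox1, Sqstm1, Gsr and Gpx4 was not tested. Of 6 luminal epithelial markers, 4 were at least 2-fold higher (Krt8, Krt18, Krt19 and Cdh1) and Elf5, a factor of secretory alveolar cells, was at least 2-fold lower, with 11039 on day 1 and 23257 on day 0. Their summed signal was 72025 on day 1 and 37981 on day 0. Luminal markers thus lay on both sides, and the part of the epithelial cells' make-up in the ratios of Prdx4, Sod2 and Gstm7 was not tested. The 5 adipocyte markers with a probe set summed to 20346 on day 1 and 18898 on day 0, with none at least 2-fold different. The 6 fibroblast markers summed to 22698 on day 1 and 18639 on day 0, likewise with none at least 2-fold different. The 3 erythroid markers with a probe set, 1 of them (Hba-a1) at least 2-fold lower, summed to 279 on day 1 and 638 on day 0, and on day 1 only Alas2 was above the floor. Of 4 measured neutrophil markers 1 was at least 2-fold higher (S100a8), and of 5 endothelial markers 1 was at least 2-fold lower (Kdr), while no muscle or myoepithelial marker was either. Endothelial markers summed to 1114 on day 1 and 1509 on day 0, neutrophil markers to 752 and 618, skeletal muscle markers to 13124 and 13206, and myoepithelial markers to 19541 and 18571, day 1 first in each. No marker with a probe set had a signal of 0 on either array.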

How the data were processed

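Per the labels, the authors deposited 1 signal per probe set from Affymetrix Microarray Suite 5.0 (MAS 5), a linear intensity, for RNA of 5 mice pooled onto 1 array per day. The scaling target was not stated. Trimmed by 2% at each end, both arrays average 250, so the authors scaled each array. Detection calls were not used here.

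Of 45101 probe sets, 64 were controls, 34945 had a single gene symbol in the platform annotation, 932 had several and 9160 were unnamed here. Gene identifiers gave current symbols from RefSeq of GRCm38.p6, which held 34741 of the 34945. Those with several symbols were not used. Signals were raised to a floor of 77.7, the median of all signals, and each gene took the log2 ratio, day 1 over day 0, of its brightest probe set (by mean of both arrays). Where 1 array was at the floor the ratio is a bound, written as "at least". No test, SD or p-value between days is possible, and the number of arrays limits the precision. Scripts were tested on simulated data. Python 3.11.15, numpy 2.4.6, pandas 2.3.3 and statsmodels 0.14.6 were used.

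The members, lists and rules were chosen with earlier results of these data known. All 38 members are accounted for, and of the further lists up to 4 genes in each direction that were at least 2-fold different, plus genes of known function chosen after their values were seen. Promoter sequences are from RefSeq (GRCm38.p6), and 32 of the 38 genes matched a window of the table used. Alternatives were 6 scalings, which kept each gene's probe set, a floor at percentile 25 or 75, a pseudocount of 16 in place of the floor, averaging the probe sets of a gene, leaving out shared probe sets, and thresholds of 1.5-fold and 3-fold. Leaving out genes whose probe sets disagree was added after the data were examined.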

Additional observations from a re-analysis of the deposited data

How the results depend on the processing

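As deposited, the 2-fold rule called 6 of 35 genes higher on day 1 and 4 lower, beside 10.4% and 13.3% of all genes. The median log2 ratio lay -0.01 from that of all genes. The counts moved by over 1.5 times to 10 and 2 after median centring (28% and 5.29% of all genes) and after ribosomal protein scaling (22.4% and 6.84%). On the hybridisation controls they were 18 and 1 (48.7% and 2.28%). Without shared probe sets the higher count was 3 of 29 (9.56% of all genes), where fewer genes could be measured. At 1.5-fold the counts were 10 and 10, where 20.4% and 27.2% of all genes were called, and at 3-fold 1 and 2, where 3.85% and 4.33% were. They stayed within 1.5 times after quantile normalization, loess and housekeeping scaling, with the other floors, with no floor, with the mean of all probe sets (5 and 3) and without genes whose probe sets disagree. The median's distance from all genes was -0.20 with a floor at the 75th percentile and 0.0874 with a pseudocount of 16 in place of the floor. It was within 0.1 of the deposited value otherwise. The median of the members was -0.13 log2 as deposited, with that floor and with the pseudocount. That of all genes was -0.12 as deposited, 0.06 with that floor (7850 genes) and -0.21 with the pseudocount. Why the median of all genes moved was not tested. Gstm7 lay at -0.83 log2 under the higher floor, a bound which that floor sets. Of 375 single-gene ratios under the alternatives, 78 moved by more than the 0.56 log2 SD between probe sets, 73 of them upwards. Median centring and hybridisation control scaling raised all 35 ratios, most of them by more than that SD. The count of moves and its direction therefore depend on the scales chosen. None of the 10 called genes changed sign. No paired analysis was possible because each day has 1 array, and no array could be left out. Signals near the floor (Mgst2, Gstm3, Nqo1, Sod3) and near the top of the range (Mgst1) limit those ratios.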

Other observations

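Gpx1, Gpx3, Gpx4 and the thioredoxin reductases carry selenocysteine. The genes that deliver selenium and insert this amino acid were read as a list of 7. Selenop, selenoprotein P, a secreted carrier of selenium, had a signal of 10017 on day 1 and 36182 on day 0, 3.61-fold lower, and between -1.88 and -0.69 log2 on the 7 scales. Selenow, a small selenoprotein, had 6956.1 on day 1 and 3349.7 on day 0, 2.08-fold higher, with 829.2 on day 1 and 388.3 on day 0 at its gene-specific probe set. The 5 genes of the insertion machinery were under 2-fold, from -0.85 log2 for Sepsecs to 0.38 log2 for Eefsec. Messages of selenoproteins therefore differed in both directions, with Gpx4, Txnrd1 and Selenow higher and Selenop, Gpx1 and Gpx3 lower, the last 2 above 0 log2 after median centring and on the hybridisation controls.

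Among enzymes that produce superoxide, Cyba, the membrane subunit shared by several NADPH oxidases, had 1395.2 on day 1 and 207.1 on day 0, 6.74-fold higher. The probe sets of Selenop and Cyba are of the _a_at kind, and neither gene had another measured one. Cybb, the catalytic subunit of the phagocyte oxidase, had 282.0 on day 1 and 301.4 on day 0, with its 3 probe sets between -0.58 and 0.76 log2. Xdh, xanthine dehydrogenase, which also coats milk fat droplets, had 7602.2 on day 1 and 25018 on day 0, 3.29-fold lower, and -0.56 log2 on the hybridisation controls.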
